A study of Mus musculus with 472 samples.

Results

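The delta protocadherins are a family of cadherin-type adhesion molecules, each a single-pass membrane protein made from its own gene. The 10 genes described here are Pcdh1, Pcdh7, Pcdh8, Pcdh9, Pcdh10, Pcdh11x, Pcdh17, Pcdh18, Pcdh19 and Pcdh20. They were taken by gene symbol from the 55450 genes of the deposited expression table, by a rule that uses no measured value. Earlier results of these data were known when the 10 genes were chosen. The genes were followed through 472 single retinal ganglion cells, the neurons whose axons form the optic nerve, from C57BL/6J mice aged 7 to 9 weeks. Whole retinas were flat-mounted, single cells were patched and their responses to light recorded, and the aspirated content went into Smart-seq2, which amplifies full-length transcripts and adds no molecular identifiers. All cells form 1 group, for which the labels name no treatment and no altered gene, and each library is 1 cell. The labels do not say which cell came from which animal, so the group counts as 1 sample and nothing was tested between cells.

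Delta protocadherins bind mainly to the same protein on a neighbouring cell, and a single neuron can make several of them at once. They act in axon growth, dendrite shape and synapse formation, and in the developing retina and visual pathway their expression differs between neuron types and layers. By their sequence they fall into the delta-1 group (Pcdh1, Pcdh7, Pcdh9 and Pcdh11x), whose long cytoplasmic forms carry a motif called CM3 that binds protein phosphatase 1, and the delta-2 group (Pcdh8, Pcdh10, Pcdh17, Pcdh18 and Pcdh19), several of which recruit the WAVE complex that drives actin branching. Pcdh20 is set apart here from both groups.

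A cell counted as positive for a gene from 10 CPM (counts per 1000000 gene counts of that cell) upward, and shares of cells carry exact Clopper-Pearson 95% intervals, which cover counting error only. Cells had a median of 5184792.5 gene counts, from 58907 to 13004880, and a median of 5554.5 positive genes. By their library names the cells were split into 5 sets, called runs here, of which A holds 234 cells, B 98, C 62, D 59 and E 19. Runs A, D and E were told by flow cell, but B and C only by order number, so each of these may hold several sequencing runs. Cells of run D had the fewest positive genes, a median of 3024 against 5253.5 to 6563 in the other runs. Of 12 ganglion cell markers, 6 or more were positive in 96.6% of cells. At least 3 markers of Müller glia were positive in 375 cells, of rods in 284, of amacrine cells in 182, of bipolar cells in 115 and of cones in 49. Fewer than 3 markers of each of rods, cones, bipolar and amacrine cells were positive in 150 cells. These are called below cells with few markers of other retinal cells, and Müller glia markers were not used to pick them.

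In the annotation of the GRCm38 build (mm10), Pcdh8, Pcdh9, Pcdh17 and Pcdh20 share chromosome 14, Pcdh10 and Pcdh18 share chromosome 3, and Pcdh11x and Pcdh19 share the X chromosome. The delta-1 genes Pcdh9 (chr14:93013410-93890679, minus strand), Pcdh11x (chrX:120290259-120910619, plus) and Pcdh7 (chr5:57717967-58133230, plus) span 877270, 620361 and 415264 bases, and Pcdh1 spans 26140. The delta-2 genes run from 4538 bases for Pcdh8 (chr14:79766775-79771312, minus), whose exons cover its whole span, to 106128 bases for Pcdh19 (chrX:133582860-133688987, minus). Pcdh10 lies at chr3:45378398-45435623 (plus), Pcdh17 at chr14:84443563-84539002 (plus), Pcdh18 at chr3:49743296-49757325 (minus) and Pcdh20 at chr14:88464743-88471396 (minus). Since exon length differs up to several-fold between members, levels are compared between genes only as CPM per kilobase of exons. The threshold of 10 CPM for a positive cell is the same for every gene and is not adjusted for length.

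The coding stretch for CM3 is shown because it is the feature that separates delta-1 from delta-2 members in the transcripts annotated here. It was present in coding transcripts of all 4 delta-1 genes and in 0 of those of the 5 delta-2 genes and Pcdh20. Within the delta-1 genes it differs between annotated transcripts. Of coding transcripts with a complete start, 3 of 5 of Pcdh7 held it, 3 of 6 of Pcdh9, 4 of 5 of Pcdh11x and 1 of 5 of Pcdh1. Some have no annotated stop codon and may lack the part that could hold it. These are transcripts of 60 and 45 residues for Pcdh1 and of 873 for Pcdh9. The Pcdh1 transcript with CM3 has 360 residues, and those of 1038 residues lack it. The lines below give 51 bases of coding sequence, 5′ to 3′, with the 15 bases of CM3 codons in capitals, which lie at chr5:57913162-57913176 (plus strand) in Pcdh7, at chr14:93326860-93326874 (minus) in Pcdh9 and at chrX:120726507-120726521 (plus) in Pcdh11x.
Pcdh7: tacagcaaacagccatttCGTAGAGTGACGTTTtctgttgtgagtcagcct
Pcdh9: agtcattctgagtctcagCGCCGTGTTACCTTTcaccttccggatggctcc
Pcdh11x: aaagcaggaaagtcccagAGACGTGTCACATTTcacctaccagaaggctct
In these 3 genes an exon junction falls after base 12 of the printed stretch, so the motif lies close to the start of an exon. The deposited counts are per gene, and do not tell forms with CM3 from forms without it.

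Pcdh9 was the most widespread and most abundant member. It was positive in 411 of 472 cells, 87.1% (interval 83.7% to 89.97%), with a lowest value of 0, a median of 388 CPM and a highest value of 4952 CPM, and only 10 cells had no count for it. Per kilobase of exons its median in positive cells was 67.8 CPM, the highest of the 10 genes, against 33.9 for Pcdh8, the next. It was the leading member per kilobase in 343 of the 460 cells with any positive member, 74.6% (70.3% to 78.5%), and it made up a median of 59.0% of the summed CPM per kilobase of the family. Its share was 93.2% in run A, 86.7% in run B, 83.9% in run C and 94.7% in run E, but 64.4% in run D. The low run D is also the run with the fewest positive genes per cell, and the part of that difference in the lower share was not tested.

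The other 3 delta-1 genes were found in fewer cells. Pcdh7, whose product binds the phosphatase inhibitor Set, was positive in 63.8% of cells (59.3% to 68.1%), with a median of 30.5 CPM and a highest value of 2108 CPM. Pcdh11x, an X-linked member, was positive in 40.7% (36.2% to 45.3%), with a median of 0.742 CPM and a highest value of 2317 CPM. Of its 192 positive cells, 129 were at 100 CPM or more, and a threshold of 1 CPM gives 228 cells. Pcdh1, also known as an adhesion molecule of airway epithelium, was positive in 36.9% (32.5% to 41.4%), with a median of 0.378 CPM and a highest value of 815 CPM. Its share varied most between runs in relative terms among the delta-1 genes, from 16.9% in D and 20.4% in B to 54.8% in C.

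Among the delta-2 genes Pcdh8 had the highest level per kilobase where it was positive. This gene, also called arcadlin, encodes an activity-induced protein that promotes the internalisation of N-cadherin. It was positive in 39.4% of cells (34.97% to 43.98%), with a median of 0.587 CPM and a highest value of 1190 CPM, and 119 of its 186 positive cells were at 100 CPM or more. A threshold of 1 CPM gives 211 positive cells, so few lay between 1 and 10 CPM, as also for Pcdh18 (166 cells at 1 CPM and 142 at 10 CPM). Pcdh10, which organises axon growth through the WAVE complex, was positive in 43.4% (38.9% to 48.0%), with a median of 3.16 CPM and a highest value of 742 CPM. Of its 205 positive cells, 61 reached 100 CPM, and a threshold of 1 CPM gives 280 cells. In positive cells the median per kilobase was 33.9 CPM for Pcdh8 and 3.40 CPM for Pcdh10, although the shares of positive cells overlap within their intervals.

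The remaining delta-2 genes were each positive in about the same share of cells, and their intervals overlap. Pcdh18, whose product binds the reelin adaptor Dab1, was positive in 30.1% (25.98% to 34.4%), with a median of 0 and a highest value of 817 CPM. Pcdh17, which like Pcdh10 recruits the WAVE complex, was positive in 29.7% (25.6% to 34.0%), with a median of 0.252 CPM and a highest value of 806 CPM. Pcdh19, the gene mutated in an X-linked epilepsy of females, was positive in 27.1% (23.2% to 31.4%), with a median of 0.145 CPM and a highest value of 497 CPM. Pcdh20 was positive in 23 cells, 4.87% (3.11% to 7.22%), with no count in 427, yet 6 cells reached 100 CPM and 1 reached 614 CPM. In the order of shares, Pcdh9 and Pcdh7 stand apart from each other and from the rest, the intervals of Pcdh10, Pcdh11x, Pcdh8 and Pcdh1 overlap, as do those of Pcdh1 and Pcdh18, and Pcdh20 stands below all others.

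**Figure D1:**
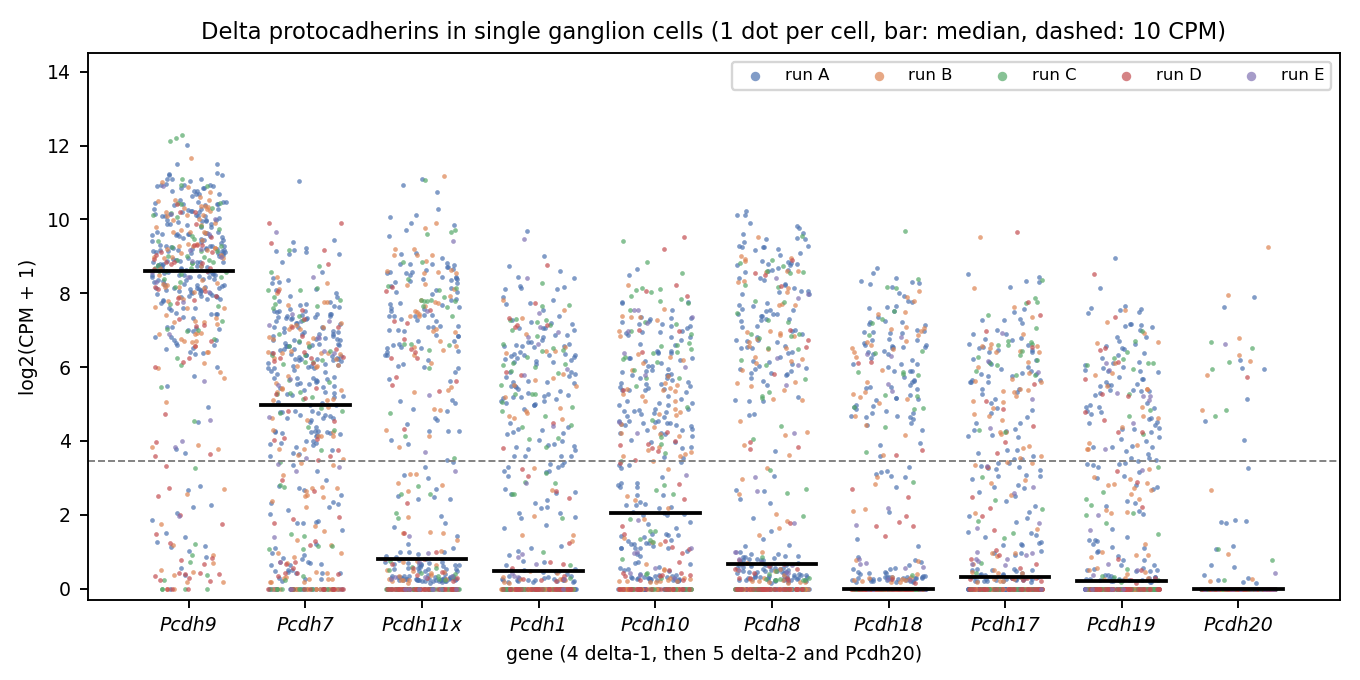
Level of each delta protocadherin in each of 472 ganglion cells, as log2(CPM + 1), with dots coloured by run, a bar at the median and a dashed line at 10 CPM. Pcdh9 forms 1 high band with a median of 388 CPM. Pcdh8 and Pcdh11x have medians of 0.587 and 0.742 CPM, with 119 and 129 cells at 100 CPM or more.

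Some members varied more between cells than genes of like mean level. Variability was measured by how far the standard deviation of log2(CPM + 1) exceeded the median of genes in the same band of mean level, over the 10796 genes with a share of positive cells from 10% to 90%. Only 0.204% of these genes were more variable by this measure than Pcdh11x and 0.278% than Pcdh8. The values were 2.68% for Pcdh9, 5.72% for Pcdh18 and 13.3% for Pcdh1. Pcdh7, Pcdh10, Pcdh17 and Pcdh19 lay near the middle of all genes, with 59.6%, 54.3%, 46.3% and 54.9% of genes more variable. Pcdh20 was positive in too few cells to be ranked.

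**Figure D2:**
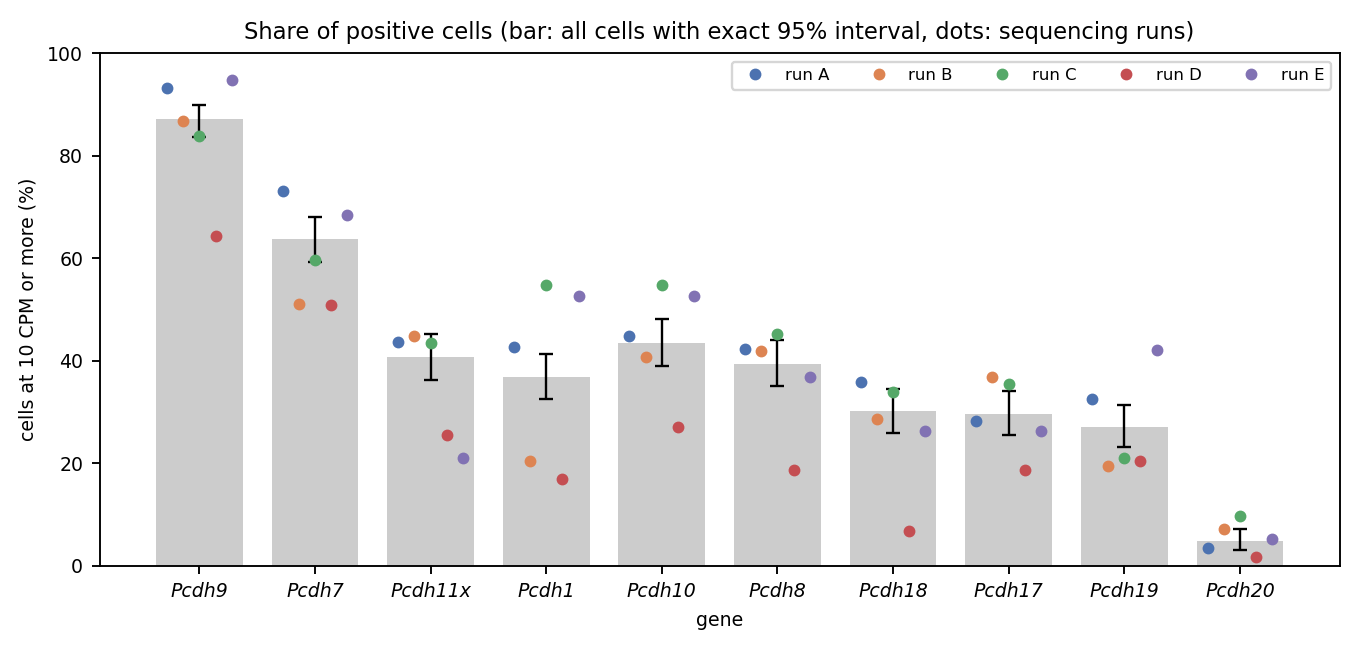
Percentage of cells at 10 CPM or more for each gene, with bars for all 472 cells, exact 95% intervals and dots for the 5 runs. Run D lies lowest for 8 of the 10 genes, and Pcdh9 is highest in every run.

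A typical cell carried several members at once. The median was 4 positive members per cell, from 0 to 10, and 193 cells, 40.9% (36.4% to 45.5%), carried 5 or more. At least 1 delta-1 gene was positive in 94.3% of cells, at least 1 delta-2 gene in 81.8%, and both groups in 78.6% (74.6% to 82.2%). Only 15 cells had delta-2 without delta-1 genes, against 74 with delta-1 alone. Per kilobase, the delta-1 sum exceeded the delta-2 sum in 86.2% of cells (82.8% to 89.2%). The number of members moved with the number of positive genes in the cell (Pearson r = 0.638 across 472 cells, which share runs and differ in depth). The 12 cells with no member had a median of 749 positive genes, the 99 cells with 4 had 5728, and the 2 cells with all 10 had 7870. In the 399 cells with at least 3000 positive genes the median was again 4 members, and the lowest count was 1.

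**Figure D3:**
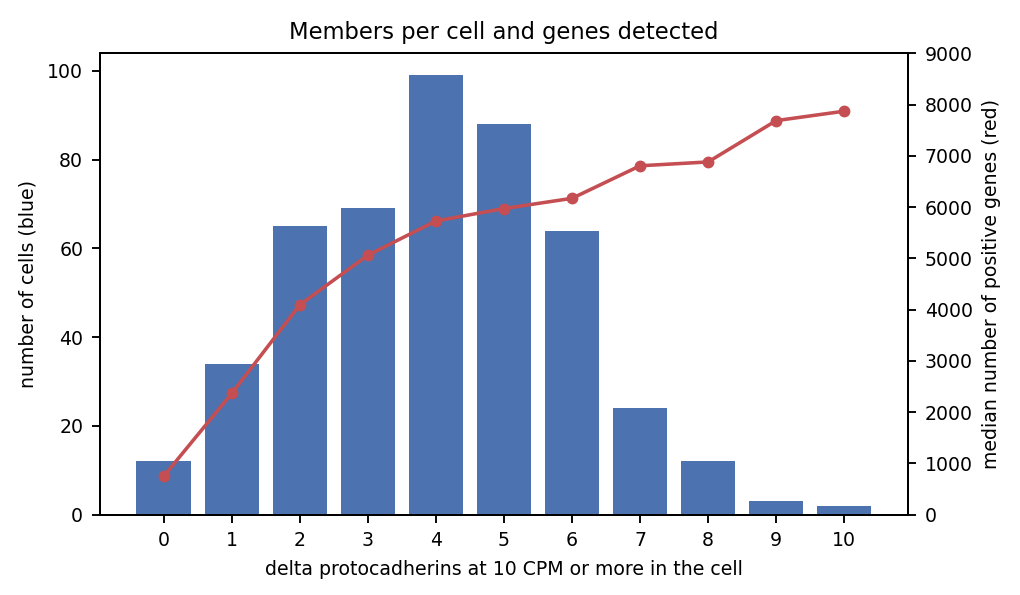
Number of cells (blue bars, left axis) and median number of positive genes (red, right axis) by the number of delta protocadherins at 10 CPM or more. Most cells hold 2 to 6 members, and the number of genes detected is 749 in cells with none and 7870 in cells with all 10.

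The combinations were diverse. Of 1024 possible combinations of the 10 genes, 203 occurred, and 115 of these occurred in 1 cell each. The most frequent was Pcdh7 with Pcdh9 (26 cells), followed by Pcdh9 alone (16 cells), no member at all (12 cells), Pcdh7, Pcdh9, Pcdh11x and Pcdh19 (10 cells), and, with 9 cells each, Pcdh7, Pcdh8, Pcdh9 and Pcdh10 as well as Pcdh7, Pcdh9 and Pcdh11x. Of these 6, the 5 with any member included Pcdh9. Where another gene led per kilobase, it was most often Pcdh8 (43 of 460 cells, 9.35%, interval 6.85% to 12.4%), then Pcdh7 (4.57%), Pcdh11x (4.35%), Pcdh18 (2.61%) and Pcdh10 (1.96%). A lost transcript and an absent one cannot be told apart in a single cell, so the number of distinct combinations holds both.

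Pairs of members differed in how often they met. For each of the 45 pairs, cells holding both genes were counted, and the count was compared with what independent shares within each run would give. It was above that number for 38 pairs and below for 7. When cells were also split at the median number of positive genes in their run, it was above for 34 and below for 11. Pairs of other genes were not counted in this way. The number of members moved with that of positive genes (r = 0.638), and a single split leaves differences in depth. These counts of pairs therefore give no result about the members. Pcdh8 and Pcdh10 met in 116 cells, against 83.2 from the shares within runs and 84.8 with the split by positive genes. The exact Clopper-Pearson interval of their share, expressed in cells out of 472, was 97.97 to 135.6, and other pair intervals are given likewise. They met more often than the shares gave in each run: 63 against 44.4 in run A, 23 against 16.7 in run B, 17 against 15.4 in run C, 7 against 2.98 in run D and 6 against 3.68 in run E. Pcdh8 also met Pcdh18 in 81 cells against 59.3 within runs, Pcdh1 met Pcdh17 in 73 against 52.1, and Pcdh11x met Pcdh19 in 70 against 52.1. Pcdh17 and Pcdh20 met in 13 cells against 7.41, within the counting interval of 6.96 to 22.0.

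One pair met less often than its shares gave, with both expected numbers above the counting interval. Pcdh8 and Pcdh19 were found together in 35 cells (interval 24.6 to 47.97), against 51.2 from the shares within runs and 52.6 with the split by positive genes. Pcdh8 was positive without Pcdh19 in 151 cells and Pcdh19 without Pcdh8 in 93. The count was below the number from the shares in runs A (17 cells against 32.2) and C (3 against 5.87), and at or above it in runs B (9 against 7.95), D (3 against 2.24) and E (3 against 2.95). In the 150 cells with few markers of other retinal cells, 4 cells held both against 11.6 from the pooled shares. These pairs were picked out of the 45 after their counts were seen.

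**Figure D4:**
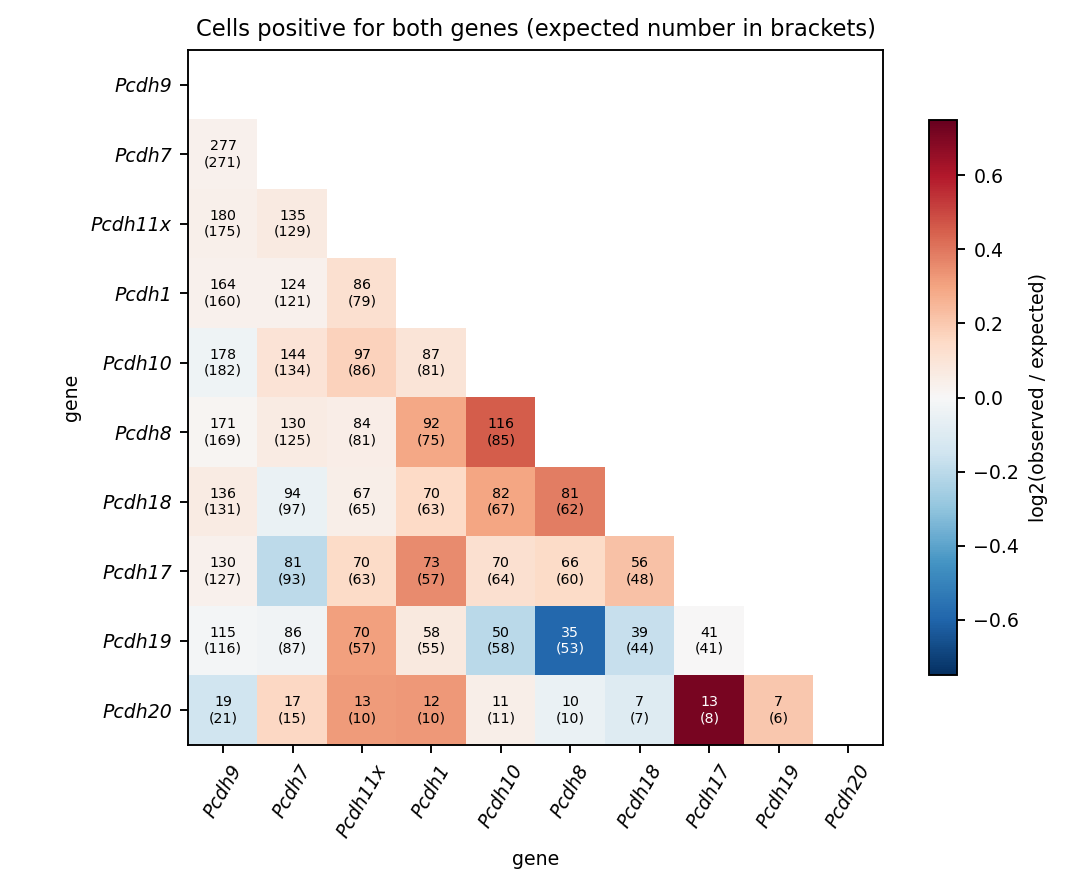
Number of cells positive for both genes of each pair, with the number expected from shares within runs split by positive genes in brackets, coloured by log2(observed / expected). Pcdh8 with Pcdh10 (116 cells) is among the reddest squares, and Pcdh8 with Pcdh19 (35 cells) is the darkest blue one. The reddest square, Pcdh17 with Pcdh20, rests on 13 cells.

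The proximal promoters of Pcdh8, Pcdh10 and Pcdh19 are printed because Pcdh8 and Pcdh10 form the pair with the largest excess of shared cells, counted in cells, and Pcdh8 and Pcdh19 the pair with the largest deficit. Each line holds the 120 bases before the annotated start on the strand of the gene, 5′ to 3′, from RefSeq (GRCm38.p6): chr14:79771313-79771432 (minus strand) for Pcdh8, chr3:45378278-45378397 (plus) for Pcdh10 and chrX:133688994-133689113 (minus) for Pcdh19. Capitals mark every match, on either strand, to TATAAA (the TATA box), to CCAAT (the box that nuclear factor Y binds), to GGGCGG (the GC box) or to TAATTA (a homeodomain core).
Pcdh8: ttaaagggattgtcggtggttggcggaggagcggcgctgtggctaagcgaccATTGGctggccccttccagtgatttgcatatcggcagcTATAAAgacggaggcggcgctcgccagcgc
Pcdh10: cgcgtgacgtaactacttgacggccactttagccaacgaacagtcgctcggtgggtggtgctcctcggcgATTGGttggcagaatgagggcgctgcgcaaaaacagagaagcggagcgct
Pcdh19: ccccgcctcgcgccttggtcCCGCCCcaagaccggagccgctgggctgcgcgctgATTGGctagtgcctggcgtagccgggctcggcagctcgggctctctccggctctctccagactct
All 3 hold a CCAAT match on the opposite strand. Over the full 250 bases before the start, this motif was in the windows of 7 of the 8 members with an entry and in 33.8% of all 32851 windows. TATAAA was found in that window of Pcdh8 alone among the members, and in 12.4% of all windows. GGGCGG was found for Pcdh10, Pcdh17, Pcdh18 and Pcdh19 (32.7% of all windows), and TAATTA for none of the 8 (4.84% of all windows).

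Cells were next grouped by genes that mark ganglion cell types, into 13 classes that overlap and that no delta protocadherin defines. As background, Spp1 with Kcng4 marks alpha ganglion cells, Opn4 encodes melanopsin, Foxp2 marks F-type cells, and Cdh6 and Satb1 are used for direction-selective cells, but the classes are called here by their genes only. A member was called different in a class when its share of positive cells differed from that in all other cells by 20 percentage points or more. Of 130 member-by-class differences, 26 were past this size, 21 higher and 5 lower. Pcdh9 and Pcdh20 were called in none, but shares of 87.1% and 4.87% leave little room above Pcdh9 and too little below Pcdh20 for such a difference. Levels of Pcdh9 did differ: its median was 635 CPM against 348 in cells with Tbr1. It was 165 CPM against 425 in cells with Foxp2, or with Foxp1 and Irx4. Beside each count stands the percentage of 10796 genes past the same difference. Of the 472 cells, 348 fell into 2 or more classes, so the classes are not independent of one another.

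**Figure D5:**
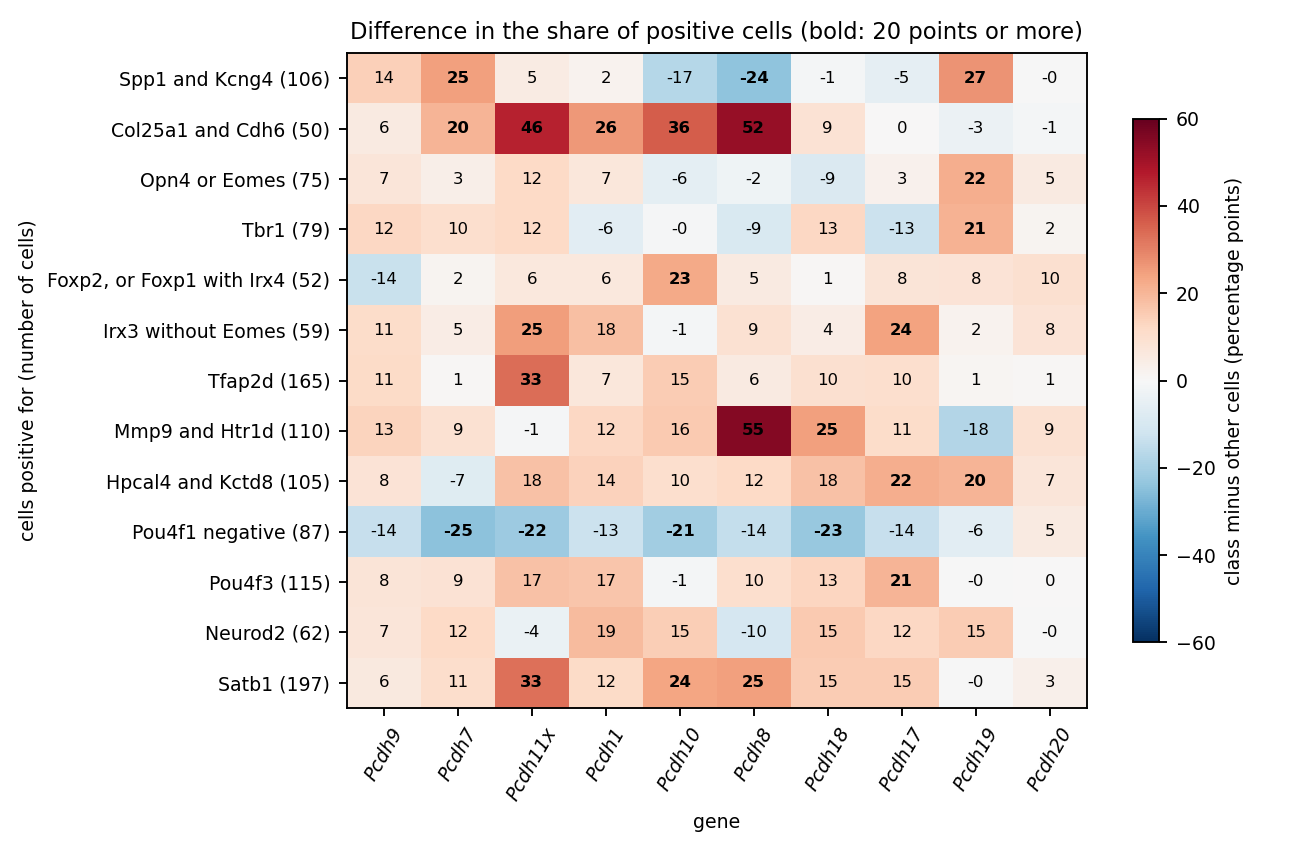
Difference in the share of positive cells between each gene-defined class (number of cells in brackets) and all other cells, in percentage points, with differences of 20 or more in bold. The largest are Pcdh8 in cells with Mmp9 and Htr1d and, in cells with Col25a1 and Cdh6, Pcdh8 and Pcdh11x.

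Cells with Mmp9, a matrix metalloproteinase, and Htr1d, a serotonin receptor, were mostly positive for Pcdh8. In these 110 cells Pcdh8 ran from 0 to 1190 CPM with a median of 178 CPM, and 81.8% were positive (73.3% to 88.5%), against a median of 0.282 CPM and 26.5% (22.0% to 31.4%) in the other 362. The levels of the groups overlap, but the difference of 55.3 points was past 20 in each run: 85.7% against 26.3% in run A, 78.3% against 30.7% in run B, 71.4% against 37.5% in run C, 4 of 4 cells against 12.7% in run D and 4 of 6 against 23.1% in run E. Pcdh18 was also more frequent there, in 49.1% against 24.3%, a difference that was 17.4 points without run A. These were 2 of 10 members, beside 5.41% of all genes higher by 20 points. Pcdh19 had its lowest share of all classes there, 13.6%, a difference under the 20 points. Positive genes per cell had a median of 6172.5 in the class and 5398.5 outside it.

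Cells with Col25a1, a membrane-bound collagen, and Cdh6, a classical cadherin, carried the most members, a median of 6 against 4 in other cells. In these 50 cells 5 of 10 members were higher by 20 points or more, beside 4.97% of all genes. Pcdh8 was positive in 86% against 33.9% of other cells, with a median of 118 against 0.419 CPM. Pcdh11x was positive in 82% against 35.8%, with a median of 207 against 0.553 CPM, and its highest value, 2317 CPM, was in this class. Pcdh10 was positive in 76% against 39.6%, Pcdh1 in 60% against 34.1% and Pcdh7 in 82% against 61.6%. Run A, which holds 31 of the 50 cells, gave 93.5% against 34.5% for Pcdh8 and 83.9% against 37.4% for Pcdh11x, but 77.4% against 72.4% for Pcdh7, and the Pcdh7 difference was 16.1 points without run B and 15.6 without run D. Positive genes per cell had a median of 6045 in the class and 5474 outside it.

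The 3 genes of largest difference in that class were also counted together in single cells. Pcdh8, Pcdh10 and Pcdh11x were all positive in 33 of the 50 Col25a1 and Cdh6 cells, 66% (51.2% to 78.8%), and in 24 of 422 other cells, 5.69% (3.68% to 8.34%). This triple was chosen after the class values were seen, so its counts are a description. Its genes were each positive in 76% to 86% of the class, and such shares alone give many cells with all 3. No number from the single shares was worked out for the triple, so its counts do not show more meeting than those shares give. Of the 40 cells of the class that also had Satb1, a chromatin organiser, 39 were positive for Pcdh8 and 38 for Pcdh11x. Pcdh8 and Pcdh11x were separable between classes: in 89 cells with Mmp9 and Htr1d but without the pair Col25a1 and Cdh6, Pcdh8 was positive in 78.7% (68.7% to 86.6%) and Pcdh11x in 25.8% (17.1% to 36.2%). In the 29 cells with Col25a1 and Cdh6 but without the pair Mmp9 and Htr1d, the shares were 79.3% (60.3% to 92.0%) and 69.0% (49.2% to 84.7%). In the 333 cells of neither class, Pcdh8 was positive in 21.9% and Pcdh11x in 38.4%.

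Cells with Spp1, which encodes osteopontin, and Kcng4, a modifier subunit of potassium channels, showed the reverse for Pcdh8. In these 106 cells Pcdh8 was positive in 20.8% (13.5% to 29.7%) against 44.8% (39.6% to 50.1%) of other cells, the 1 of 10 members lower there, beside 0.167% of all genes. Pcdh19 was positive in 48.1% (38.3% to 58.0%) against 21.04%, and Pcdh7 in 83.0% against 58.2%, which makes 2 of 10 members higher beside 7.62% of all genes. In run A, which holds 82 of these cells, the shares were 19.5% against 54.6% for Pcdh8 and 50% against 23.0% for Pcdh19. For Pcdh7 they were 79.3% against 69.7%, and the difference was 19.7 points without run B. Without run A the Pcdh8 difference was -12.9 points. Müller glia markers also moved with this class: 3 or more of 8 were positive in 96.2% against 74.6% of cells, with summed levels of 199 to 9018 CPM in the class and 3.57 to 48248 CPM outside and no marker at 0 throughout. Their part in these differences was not tested.

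The pairs could be read within these classes. Pcdh8 and Pcdh10 met in 35 cells against 25.6 from the pooled shares among the 245 cells of none of the 3 classes above. The numbers from pooled shares in this paragraph are adjusted neither for run nor for positive genes. Pcdh8 was called different in each of the 3 classes left out. Pcdh8 and Pcdh19 met in 17 of these 245 cells against 16.2, with no deficit, and in 7 cells against 12.3 within the Mmp9 and Htr1d class. Pcdh11x and Pcdh19 met in 34 of the 245 cells against 24.3, and Pcdh8 and Pcdh18 in 24 against 14.4.

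Pcdh11x followed 2 transcription factor classes. Among 165 cells with Tfap2d, it was positive in 62.4% (54.6% to 69.8%) against 29.0% (24.0% to 34.4%), the 1 of 10 members higher there, beside 2.32% of all genes. Among 197 cells with Satb1 it was positive in 59.9% (52.7% to 66.8%) against 26.9% (21.8% to 32.6%). Pcdh8 (53.8% against 29.1%) and Pcdh10 (57.4% against 33.5%) were higher in the Satb1 cells too, so 3 of 10 members were, beside 1.51% of all genes. The Pcdh10 difference was 18.6 points without run A. Positive genes per cell had a median of 5938 in the Satb1 cells and 5168 outside them. In cells with at least 3000 positive genes the difference was 19.5 points for Pcdh8, 19.3 for Pcdh10 and 29.5 for Pcdh11x. The Satb1 difference of Pcdh11x was small in run C, 44.8% against 42.4%, and large in A (64.4% against 27.8%), B (65.2% against 26.9%) and D (57.1% against 15.6%). Outside the Col25a1 and Cdh6 class, Satb1 cells were still positive for Pcdh11x in 51.0% (42.9% to 59.0%).

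In the 59 cells with the homeobox gene Irx3 but not Eomes, Pcdh11x was positive in 62.7% against 37.5% and Pcdh17 in 50.8% against 26.6%, 2 of 10 members beside 4.99% of all genes, with 19.3 points for Pcdh17 without run B. In this class 91.5% of cells had 3 or more Müller markers, against 77.7% outside. Pcdh17 was also higher in the 115 cells with Pou4f3, a POU factor of ganglion cells, in 45.2% against 24.7%, 1 of 10 members beside 7.47% of genes, and by 16.1 points without run B and 18.9 without run D. In the 52 cells with Foxp2, or with Foxp1 and Irx4, Pcdh10 was positive in 63.5% against 41.0%, 1 of 10 members beside 2.53% of genes, but in run A the shares were 46.7% and 44.8%, and the difference was 18.8, 17.2 and 17.99 points without runs B, C and D in turn. In run E the order was the other way, with 2 of 6 class cells against 61.5% of the others. Markers of other retinal cells moved with this class: 3 or more of 6 amacrine markers were positive in 57.7% against 36.2% (summed levels 37.9 to 2270 CPM in the class and 0 to 3458 outside), 3 or more of 6 bipolar markers in 40.4% against 22.4% (0.134 to 1554 CPM and 0 to 1662), and 3 or more of 6 rod markers in 71.2% against 58.8%. No marker of these lists was at 0 throughout, and their part in the Pcdh10 difference was not tested. Pcdh9 had its lowest share of all classes there, 75%.

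Pcdh19 was higher in 3 further classes. In the 75 cells with Opn4 or Eomes it was positive in 45.3% against 23.7%, 1 of 10 members beside 0.871% of genes, and in the 79 cells with Tbr1 in 44.3% against 23.7%, 1 of 10 beside 3.47%. Without run A the first difference was 13.1 points and without run C it was 19.99, and the second was 19.4 without run B. In run B the share in Opn4 or Eomes cells was 18.2% against 19.7%. In the Opn4 or Eomes class 3 or more bipolar markers were found in 36% against 22.2% of cells and 3 or more amacrine markers in 50.7% against 36.3%. In the 105 cells with Hpcal4 and Kctd8 it was positive in 42.9% against 22.6%, and Pcdh17 in 46.7% against 24.8%. These were 2 of 10 members beside 27.9% of all genes, a share near the background. Without run A the differences were 14.1 and 16.3 points, and those of Pcdh19 without run D (19.99) and run E (19.6) and of Pcdh17 without run D (19.7) were also under 20, and in run C Pcdh17 was positive in 33.3% against 36.4%. In that class 43.8% of cells had 3 or more of 6 bipolar cell markers, against 18.8% outside, with summed levels of 0 to 1559 CPM in the class (median 104) and 0 to 1662 CPM outside (median 37.8) and no marker at 0 throughout. Other marker lists moved with it too: 3 or more were positive for amacrine cells in 57.1% against 33.2%, for rods in 73.3% against 56.4%, for cones in 20% against 7.63% and for Müller glia in 92.4% against 75.7%. The part of these markers in the class differences was not tested. In the 150 cells with few rod, cone, bipolar and amacrine markers, the Pcdh19 difference was 20.8 points in Spp1 and Kcng4 cells and 17.3 in Opn4 or Eomes cells. It was 11.5 in Tbr1 cells and 5.77 in Hpcal4 and Kctd8 cells. Müller markers were not used to pick these 150 cells.

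In the 87 cells without Pou4f1, Pcdh7 (43.7% against 68.3%), Pcdh10 (26.4% against 47.3%), Pcdh11x (23.0% against 44.7%) and Pcdh18 (11.5% against 34.3%) were lower by 20 points or more. These were 4 of 10 members beside 20.4% of all genes, and the cells had a median of 4137 positive genes against 5773 in the others and 3 or more Müller markers in 70.1% against 81.6%. All 4 fell short of 20 points without 1 of the runs: Pcdh7 (-19.4) and Pcdh11x (-16.9) without run D, Pcdh10 (-16.3) without run C and Pcdh18 (-19.6) without run B. No member was past 20 points in the 62 cells with Neurod2.

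Members differed to unlike degrees between cells with and without markers of neighbouring cells. Pcdh17 was positive in 45.2% of the 115 cells with 3 or more bipolar markers and in 24.6% of the others, and Pcdh19 in 39.1% against 23.2%. The median difference of all ranked genes in the same comparison was 10.2 points, and 9.97% of them were higher by 20 points. Pcdh8 (43.5% against 38.1%) and Pcdh11x (36.5% against 42.0%) differed less. In the 375 cells with 3 or more Müller markers, Pcdh17 (34.1% against 12.4%), Pcdh1 (41.3% against 19.6%) and Pcdh19 (31.2% against 11.3%) differed most. Their differences were 21.8, 21.7 and 19.9 points. The median over all ranked genes was 16.4 points and 34.5% of them were higher by 20 points, so such sizes were common. Those cells had a median of 5834 positive genes against 3780. The part of neighbouring cells in the shares of Pcdh1, Pcdh17 and Pcdh19 was not tested.

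The partners of the family differed in their share of positive cells. Of 14 partner genes, 7 reached a positive share of 50%. For scale, 4.63% of all 55450 genes had a share above the 63.8% of Pcdh7. A share above the 43.4% of Pcdh10 was found for 9.32% of them. In the WAVE complex, Cyfip2 was positive in 92.8% of cells, Abi2 in 80.1%, Brk1 in 68.2%, Nckap1 in 63.1%, Wasf1 in 47.7%, Abi1 in 45.6% and Cyfip1 in 29.9%. Ppp1ca, the phosphatase that CM3 binds, was positive in 82.0% and Set, the partner of Pcdh7, in 83.3%. Cdh2, the N-cadherin that associates with Pcdh8 and Pcdh19, was positive in 62.1%, the kinases Taok2 and Mapk14 downstream of Pcdh8 in 47.2% and 41.3%, and Dab1 in 35.8%.

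Members and partners met as follows. Nckap1, which links delta-2 members to the WAVE complex, was positive in 69.3% of Pcdh10 cells, 72.1% of Pcdh17 cells and 71.1% of Pcdh19 cells, against 58.4%, 59.3% and 60.2% of cells without each. It was also more frequent in the positive cells of every other member, among them the delta-1 genes Pcdh9 (67.2% against 36.1%), Pcdh7 (69.1% against 52.6%) and Pcdh1 (73.0% against 57.4%). Dab1 was positive in 50.7% of Pcdh18 cells against 29.4% of cells without Pcdh18, and in 53.6% against 28.3% for Pcdh17, 46.8% against 28.7% for Pcdh8 and 38.4% against 18.03% for Pcdh9. Taok2 was positive in 54.3% of Pcdh8 cells against 42.7%, with wider gaps for Pcdh9 (52.8% against 9.84%), Pcdh18 (65.5% against 39.4%) and Pcdh1 (62.1% against 38.6%). For each of these 3 partners, members not named as its partner showed gaps as wide. Members were more often positive in cells with more positive genes, and the part of this in these differences was not tested. Of the other non-clustered family members, Pcdh12, an endothelial protocadherin, had no count in any cell. A set limit of 3 of 472 cells allows a share of cells with a count of up to 0.636%, and the exact 95% interval reaches 0.778%. Pcdh15 and Cdhr1, known from hair cells and photoreceptors, were positive in 17.2% and 24.6%.

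Genes whose level moved with a member were ranked by Pearson r of log2(CPM + 1) over the 472 cells, centred within run and adjusted for the number of positive genes, among 11149 genes positive in 10% of cells or more. These cells share runs and differ in depth, and the values are descriptions. Pcdh8 had the closest neighbours: Bnc2, a zinc finger gene, at r = 0.578 and Mmp9 at 0.523, where 99% of all genes were under 0.214. Pcdh11x was nearest to Satb1 (0.366) and C230085N15Rik (0.354), and Pcdh10 to Cartpt, a neuropeptide precursor (0.336), and to Pcdh8 (0.327). Pcdh19 was nearest to Sorcs1, a sorting receptor (0.311), and to Chrna4, a nicotinic receptor subunit (0.271). The nearest genes of Pcdh1, Pcdh17 and Pcdh18 were at most at 0.274: Col6a2 and Gm42418 for Pcdh1, Grm5 and Lrrtm1 for Pcdh17, and Fam19a1 and Nell1 for Pcdh18. The counts are sparse, and the weaker of these correlations, that of Chrna4 among them, serve only as places in the ranking.

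The nearest genes of the 2 most frequent members lie inside them. For Pcdh9 it was Gm17922 (r = 0.403), annotated as a processed pseudogene at chr14:93202100-93202901, and for Pcdh7 it was Gm37720 (0.297), an unconfirmed transcript at chr5:57984212-57985452. Each lies within the span of its member on the same strand and overlaps none of its exons. Igf1 (0.293) and Kcnd2, a potassium channel gene (0.286), came second. On the opposite strand, 4932441J04Rik shares 2235 bases of exon with Pcdh7 and was positive in 62 cells, 41 of them positive for Pcdh7. The sources used here do not state whether counting used strand, so reads in the shared stretch cannot be told apart. The genes on the opposite strand that overlap exons of Pcdh8 (Gm9748), Pcdh10 (1700027H10Rik) and Pcdh19 (Gm26851) were positive in 0 cells, with highest values of 9.61, 0.370 and 0 CPM.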

How the data were processed

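The authors deposited 1 table of estimated counts (expected counts, which need not be whole) per gene and cell, with 55450 gene columns and 92 columns of ERCC spike-ins, of whose values 1.37% had decimals. The aligner was STAR 2.7.0 and the build mm10, per the submitters' processing notes. No source used here states the quantification tool, the annotation release or the strand setting. A deposited key links library names to cells, and 0 rows stayed unmapped.

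Estimated counts were rounded, and each cell's genes, spike-ins excluded, were scaled to sum to 1000000. Identifiers of all 55450 genes were matched to GENCODE mouse release 21 for positions and exon lengths. Promoter windows came from RefSeq (GRCm38.p6), with entries for 8 of the 10 members, and Pcdh9 has 2 starts. Runs A, D and E were read from flow cell and lane in the library names, B and C from the order number. No cell was left out and no doublet caller was run, since cells were picked singly. The intervals are taken over numbers of cells and cover counting error only, and the labels name no animal per cell. Without molecular identifiers the counts are of reads, not of molecules.

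The members and the gene lists were chosen with earlier results of these data known. Named genes are the 10 members, the 2 nearest genes of each member positive in at least 10% of cells, all genes of the partner and family lists, the class genes and overlapping genes. The scripts were tested on simulated data. Python 3.11.15, numpy 2.4.6, pandas 2.3.3, scipy 1.17.1 and matplotlib 3.10.9 were used. Alternatives covered the threshold, thinning, the cells and runs used, the CPM denominator, rounding, gene length and the adjustment of r. The values of 1 gene on the list of partners are not reported here.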

Additional observations from a re-analysis of the deposited data

How the results depend on the processing

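The median number of members per cell was 4 in each setting except the threshold, with 5 at 1 CPM and 2 at 100 CPM. The share of cells with 5 or more members was 58.7% at 1 CPM, 5.08% at 100 CPM, 47.9% in the 399 cells with at least 3000 positive genes and 34.0% without run A, against 40.9% in all cells. Of the 26 class differences, 7 were past 20 points at 100 CPM, and Pcdh19 in Hpcal4 and Kctd8 cells turned to -3.14 points there. Over all 130 differences, the number past 20 points was 8 at 100 CPM, 18 in cells with at least 3000 positive genes, 37 in the 150 cells with few markers of other retinal cells and 19 to 27 without 1 run. The difference of Pcdh8 in Mmp9 and Htr1d cells ran from 49.9 to 58.5 points without 1 run and was 53.7 at 100 CPM, and that of Pcdh11x in Tfap2d cells ran from 28.9 to 38.3. Pcdh9 led in 70.1% of the cells with few markers of other retinal cells and in 71.96% with the length of the longest transcript. Of the 18 nearest genes, 11 were named again with no adjustment for run and positive genes, and 13 with Spearman's rho. The cause of these shifts was not tested. Thinning each cell to 1000000 counts (465 cells) moved no positive share beyond its interval. It did bring 5 of the 26 class differences under 20 points. Pcdh10 fell to 16.7 points in cells with Foxp2, or with Foxp1 and Irx4. Pcdh19 fell to 16.4 in Hpcal4 and Kctd8 cells and to 18.6 in Opn4 or Eomes cells. In cells without Pou4f1, Pcdh10 and Pcdh11x came to -19.9 and -19.4 points. Since a transcript present in a cell can be missed, cells at 0 counts limit statements on absence.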
